A study of Mus musculus with 6 samples.

Results

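The genes of apelin, its receptor and 7 angiogenic ligands (Apln, Aplnr, Vegfa, Vegfb, Vegfc, Pgf, Angpt1, Angpt2 and Angptl4) were followed in sorted mouse skin cells after a carcinogen. They were chosen by name with the DMBA minus vehicle difference of these same arrays already known, and all 9 were found through the RefSeq accession of their probes, among 21368 genes with a symbol on the array. They have 10 probes, 1 per gene except for 2 of Vegfa. Male mice were depilated and received acetone on the skin (vehicle, 3 samples) or DMBA (3 samples), and epidermal cells were sorted after 3 days, with different mice behind each sample per the series description. DMBA, or 7,12-dimethylbenz[a]anthracene, is a polycyclic hydrocarbon that damages DNA after metabolic activation. The sort kept cells with a bright EGFP reporter under the keratin 15 promoter, high integrin alpha 6 and no Sca1 at the surface, a population labelled as stem cells of the hair follicle and hair germ. The strain, the age and the dose are not given in the sources used here. All samples, vehicle included, share the depilation and the reporter, and the gate depends on the cells in which that promoter is active.

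Apelin is a small secreted peptide that acts through APJ, a G protein-coupled receptor encoded by Aplnr, and is known from growing blood vessels. The ligands of the VEGF family (Vegfa, Vegfb, Vegfc and Pgf) act on tyrosine kinase receptors of blood and lymph vessels. Angpt1 and Angpt2 are ligands of the receptor TIE2, of which Angpt1 is the activating one and Angpt2 often the antagonist. Angptl4 encodes a related secreted protein that inhibits lipoprotein lipase and is a target of PPAR receptors. In skin, keratinocytes of the follicle make VEGF-A, and vessels around the follicle grow and shrink with the hair cycle. Vegfa, Angptl4 and Apln are also known as targets of the hypoxia-inducible factors (HIF).

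Levels are log2 intensities set relative to the 75th percentile of their own array, which is 0 on this scale, and "well above background" is the scanner software's own flag for a spot. The 75th percentile intensity ranged from 1758 to 2274 on the vehicle arrays and from 1355 to 2222 on the DMBA arrays. The percent of spots well above background ranged from 77.2 to 83.7 with vehicle and from 69.6 to 81.1 with DMBA. The array of vehicle 1 lay alone on its slide and was scanned on another day than the other 5. Krt15 and Itga6, the genes of the sort, were well above background on each array. With limma over 17836 genes, 0 passed an adjusted p of 0.05 (0% called), and an unadjusted p under 0.05 was reached by 488 genes with higher values after DMBA (2.74%) and by 445 with lower values (2.49%), a split of 403 and 592 when arrays were scaled to their median. The 9 genes were chosen with this contrast in view, so their differences are given as a description, with no test.

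Among the members in the fit, Apln and Pgf had the largest differences towards higher values after DMBA and Vegfa the largest towards lower ones, and the 250 bases before a start site of each are shown for that reason. They are RefSeq sequences of build GRCm38.p6, written 5′ to 3′ in the direction of the gene, and 5 of the 9 genes had a window in that table. Capitals mark GCGTG, the core bound by the aryl hydrocarbon receptor with ARNT, and ACGTG, a core bound by HIF, on either strand.
Apln, chrX:48034854-48035103, minus strand: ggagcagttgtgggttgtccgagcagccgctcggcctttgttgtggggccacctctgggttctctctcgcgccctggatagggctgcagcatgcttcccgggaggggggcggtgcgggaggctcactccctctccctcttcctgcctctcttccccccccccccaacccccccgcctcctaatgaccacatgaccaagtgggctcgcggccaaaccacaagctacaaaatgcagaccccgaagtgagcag
Pgf, chr12:85177314-85177563, minus strand: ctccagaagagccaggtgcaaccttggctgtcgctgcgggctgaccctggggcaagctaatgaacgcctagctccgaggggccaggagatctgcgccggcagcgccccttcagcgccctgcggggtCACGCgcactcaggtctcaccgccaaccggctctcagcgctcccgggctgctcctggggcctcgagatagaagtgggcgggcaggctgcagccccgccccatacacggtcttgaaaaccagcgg
Vegfa, chr17:46032378-46032627, minus strand: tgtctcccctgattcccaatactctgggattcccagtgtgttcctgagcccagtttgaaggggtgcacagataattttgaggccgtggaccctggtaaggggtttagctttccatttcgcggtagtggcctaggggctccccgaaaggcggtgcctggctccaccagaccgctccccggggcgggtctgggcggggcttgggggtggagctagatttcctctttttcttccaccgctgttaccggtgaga
The windows of Apln and Vegfa shown held neither core. A second Vegfa window, not shown, lies before another start site and inside the span of the gene, at chr17:46025164-46025413. It held 1 GCGTG and 1 ACGTG core, at positions -218 and -211. The window of Pgf shown held 1 GCGTG core, on the opposite strand, at position -124 from the start, and its second window, not shown, held none. Both Pgf windows also lie inside the span of the gene. The Vegfb window, not shown, held 2 GCGTG cores, at positions -237 and -81, and the Vegfc window, not shown, held neither core. Of 32851 windows of this length before start sites of mouse genes, 28.2% held GCGTG, 16.6% held ACGTG and 38.6% held at least 1 of them, and these matches are a description of letters, not sites.

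Apln had the largest difference of the 9 genes. Its values were -7.09, -2.38 and -7.31 on the arrays of vehicle 1 to 3, and -1.04, -0.56 and -0.80 on those of DMBA 1 to 3. The groups did not overlap, with DMBA the higher, and the probe was well above background on each DMBA array but on 1 vehicle array, that of vehicle 2. The mean was -5.60 ± 2.79 (SD, n = 3) with vehicle and -0.80 ± 0.24 with DMBA. The difference was 4.80 on the log2 scale (limma SE 1.32) or 27.8-fold, and it rests largely on 2 vehicle spots that were not well above background. The 1 vehicle spot that was well above background read -2.38, against the DMBA mean of -0.80. With the 2 dim spots set to the lowest value above background on their arrays, the difference was 4.05, or 16.5-fold. It was 2.88 after background correction by normexp, 4.05 on the slide that held both groups, and 6.40 without vehicle 2. Because these are bulk samples, a change in the number of cells of a type and a change in RNA per cell cannot be told apart.

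Aplnr, the receptor gene, was well above background on all 6 arrays. It lay at -0.87, -0.94 and -1.10 with vehicle and at -0.56, -0.86 and -1.08 with DMBA, and the groups overlapped. The difference was 0.14 (SE 0.24), with means of -0.97 ± 0.12 and -0.83 ± 0.26 (SD, n = 3). Apela, the other ligand of this receptor, was well above background on at most 1 array and was not tested.

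**Figure D1:**
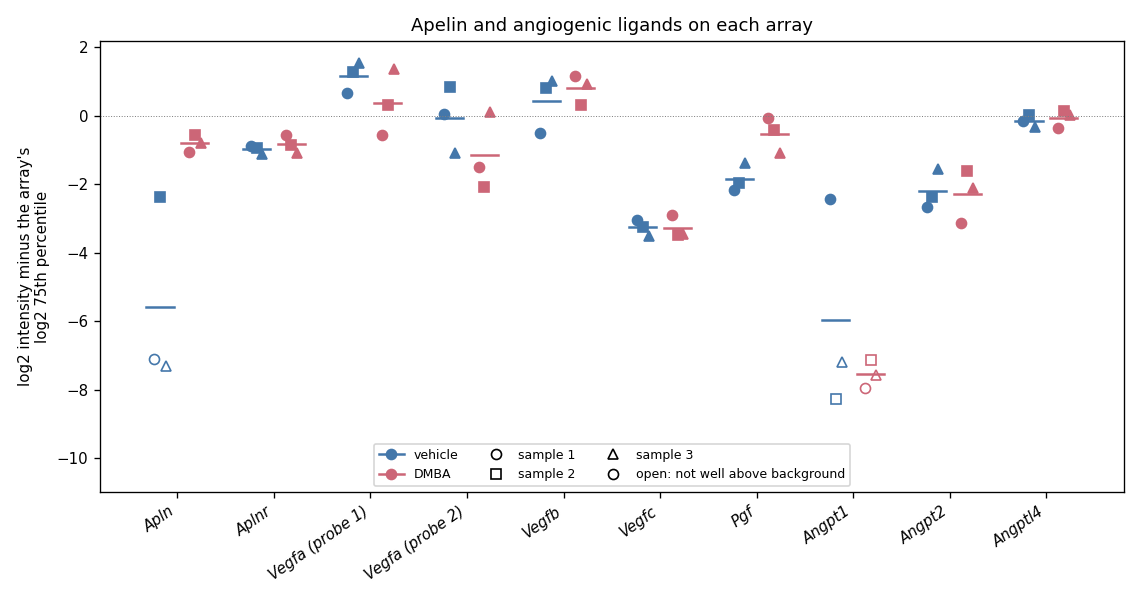
Each point is 1 array, with log2 intensity relative to the 75th percentile on the vertical axis, vehicle in blue and DMBA in red, bars at the means and open symbols where a spot was not well above background. Apln with vehicle holds 2 open symbols near -7 and 1 filled symbol at -2.38, while its 3 DMBA values lie from -1.04 to -0.56.

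Pgf, the gene of placental growth factor, a ligand of the receptor VEGFR1, also had groups that did not overlap. Its values were -2.16, -1.97 and -1.38 with vehicle and -0.06, -0.41 and -1.09 with DMBA. The lowest DMBA array, DMBA 3, lay just above the highest vehicle array, vehicle 3. All 6 spots were well above background, the means were -1.84 ± 0.41 and -0.52 ± 0.52 (SD, n = 3), and the difference was 1.32 (SE 0.37), or 2.49-fold higher with DMBA. Leaving out each array in turn gave 1.09 to 1.60. Of the 8 members that passed the filter on dim probes, 2 (Apln and Pgf) had every DMBA value above every vehicle value and 0 had the reverse, beside 4.87% and 5.17% of all genes tested. The choice of the members used this contrast, so nothing is read from that count. Apln passed the filter through the group in which it is high.

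Vegfa, the principal angiogenic ligand of the family, had 2 probes, and both had lower means with DMBA. On the brighter probe the values were 0.68, 1.28 and 1.54 with vehicle and -0.57, 0.31 and 1.38 with DMBA. On the other probe they were 0.06, 0.84 and -1.09 with vehicle and -1.49, -2.08 and 0.11 with DMBA. The groups overlapped on both probes, since DMBA 3 lay within the vehicle range on each. The means of the brighter probe were 1.17 ± 0.44 with vehicle and 0.37 ± 0.97 with DMBA (SD, n = 3), and those of the other -0.06 ± 0.97 and -1.15 ± 1.13. The difference was -0.80 (SE 0.54) on the brighter probe and -1.09 (SE 0.72) on the other. Without DMBA 1 the first was -0.33, and without DMBA 3 it was -1.30. The groups then no longer overlapped, which follows from leaving out the array that lay within the vehicle range. In that setting 1578 of the 17836 genes tested were lower without overlap. With the percent of spots above background as a covariate the difference on the brighter probe was -1.44. The probes disagreed most on vehicle 3, which was the highest array by the brighter probe and the third lowest by the other. The second probe has 2 spots on each array, and those on vehicle 3 read -1.11 and -1.07, closer to each other than the probes were. The probes are annotated to different RefSeq transcripts of the gene, and the exons they read were not analysed here.

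**Figure D2:**
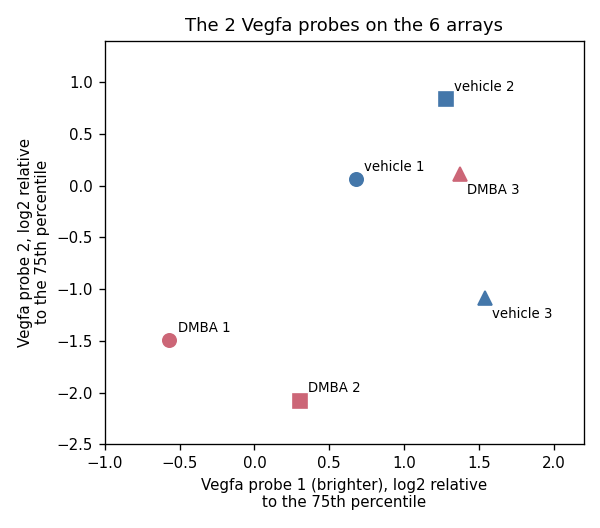
The 6 arrays are plotted by the brighter Vegfa probe on the horizontal axis and the other on the vertical axis, both as log2 intensity relative to the 75th percentile. DMBA 1 and DMBA 2 lie low on both axes, DMBA 3 lies among the vehicle arrays, and vehicle 3 is high on one probe and at -1.09 on the other.

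The remaining VEGF ligands had smaller differences. Vegfb, a ligand of VEGFR1, lay at -0.51, 0.80 and 1.01 with vehicle and at 1.15, 0.33 and 0.93 with DMBA. Its difference of 0.37 (SE 0.48) came with vehicle 1 below the other 5 arrays, and without vehicle 1, which is also the comparison within the shared slide, it was -0.10. Vegfc, the ligand of lymphatic growth, lay at -3.03, -3.23 and -3.52 with vehicle and -2.89, -3.49 and -3.45 with DMBA, a difference of -0.02 (SE 0.28). The groups overlapped for Vegfb and for Vegfc, and all their spots were well above background. The sign of the Vegfc value turned in 5 of 17 alternative settings, among them the slide block and vehicle 1 left out, which are the same comparison.

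Among the angiopoietins, Angpt2 lay at -2.66, -2.37 and -1.55 with vehicle and -3.14, -1.62 and -2.11 with DMBA. The groups overlapped, and the difference was -0.10 (SE 0.49), with 0.33 without DMBA 1, 0.23 without vehicle 3 and -1.01 with the percent of spots above background as a covariate. Angpt1 was well above background on 1 of 6 arrays, that of vehicle 1, at -2.44. The other values were -8.28 and -7.20 for vehicle 2 and 3 and -7.94, -7.12 and -7.59 for DMBA 1 to 3. It did not pass the filter, and no fold is given because the vehicle mean of -5.97 lies below the mean of the lowest values above background on the DMBA arrays, -5.36. Vehicle 1 is also the array that lay on its own slide, and the part of the slide in this value was not tested.

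Angptl4, the lipase inhibitor, was well above background throughout and varied little. It lay at -0.14, 0.02 and -0.33 with vehicle and at -0.34, 0.14 and 0.01 with DMBA. The groups overlapped, the means were -0.15 ± 0.17 and -0.06 ± 0.25 (SD, n = 3), and the difference was 0.09 (SE 0.24).

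**Figure D3:**
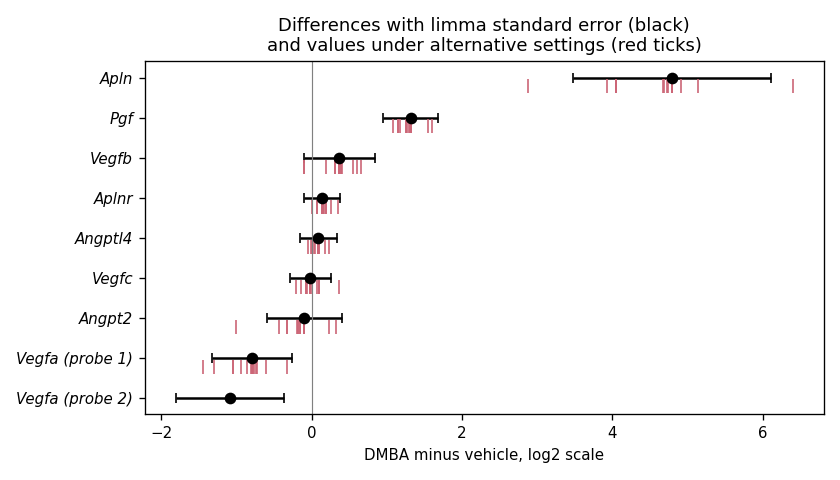
DMBA minus vehicle on the log2 scale for the 8 members that passed the filter, with limma standard errors as black bars and the value under each alternative setting as red ticks. Apln (4.80), Pgf (1.32), Aplnr (0.14) and the brighter Vegfa probe (-0.80) keep their side of 0 in the settings drawn. The lowest Aplnr tick lies at 0.0005, and the ticks of Vegfb, Vegfc, Angpt2 and Angptl4 lie on both sides.

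The genes around these ligands were tested in the limma fit over 17836 genes, which also gave their SEs. The SEs of the members and of other probes come from a limma fit over all 44936 kept probes. Of 83 genes in 7 lists of receptors, regulators and other factors, 73 were tested, 37 of them higher and 36 lower, and 0 passed an adjusted p of 0.05. At unadjusted p under 0.05, 3 were higher (4.11%) and 4 lower (5.48%), beside 2.74% and 2.49% of all genes. Groups did not overlap in 4 higher genes (5.48%) and 8 lower ones (11.0%), beside 4.87% and 5.17% of all genes.

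In the list of receptors and other ligands of VEGF and apelin, 4 of 7 genes were tested and 3 were higher (median difference 0.41, beside -0.01 over all genes). The median was 0.10 without vehicle 1, 0.19 without DMBA 1 and 0.05 over genes well above background on all 6 arrays. Nrp1, the neuropilin that binds VEGF-A as a co-receptor, lay at -6.54, -5.50 and -7.32 with vehicle and at -3.74, -2.96 and -5.22 with DMBA. It was well above background on 1 vehicle array, vehicle 2, and on 3 DMBA arrays. Its difference was 2.48 (SE 0.70) and did not pass (limma adjusted p = 0.779), and with dim spots at the lowest value above background it was 1.91. Nrp2, its relative, had a difference of -0.17 (SE 0.21), and Vegfd, a ligand of lymphatic growth, 0.76 (SE 0.62). Kdr, which encodes VEGFR2, lay at 1.09, 1.03 and 1.03 with vehicle and 1.32, 0.97 and 1.01 with DMBA, a difference of 0.05 (SE 0.22). Flt1 and Flt4, the genes of VEGFR1 and VEGFR3, were well above background on at most 2 and 1 arrays.

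In the list of the TIE pathway and other angiopoietin-like genes, 3 of 7 tested genes were higher and the median was -0.22, with 0.17 after normexp, 0.22 without the filter on dim probes, and -0.82 without DMBA 3. Angptl6 had a difference of -1.10 (SE 0.44), with overlapping groups, and Angptl2 one of 0.76 (SE 0.43). Tek, which encodes TIE2, had a difference of 0.74 (SE 0.80) and was well above background on 2 arrays of each group, while Tie1 and Ptprb were above background on none.

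The genes of oxygen sensing and the HIF targets went both ways. Of the 9 sensing genes, 5 were higher and the median was 0.14, the highest value of any setting. It was below 0 in 6 of 16 alternatives, with -0.09 without vehicle 1, -0.30 without vehicle 2, -0.27 without DMBA 2 and -0.47 with the percent of spots above background as a covariate. Arnt, the partner of both HIF and the aryl hydrocarbon receptor, had groups that did not overlap and a difference of -0.47 (SE 0.26), and Egln2, a prolyl hydroxylase that marks HIF for decay, one of -0.29 (SE 0.23). The other Egln2 probe had a difference of -0.04 (SE 0.32). Hif1a and Hif3a had differences of 0.26 (SE 0.29) and 0.16 (SE 0.25), and the other 2 Hif3a probes had -0.12 and -0.08. Of the 21 HIF targets tested, 8 were higher and 13 lower (median -0.11), and 0 passed over all genes. P4ha1, a collagen prolyl hydroxylase, lay at -2.32, -3.67 and -3.92 with vehicle and at -6.13, -5.28 and -5.61 with DMBA, where 0 of its 3 spots were well above background, against 3 of 3 with vehicle. Its measured difference was -2.37 (SE 0.48; limma adjusted p = 0.536), and as a bound, which sets the vehicle mean against the lowest values above background and leaves out the spread between arrays, it was at least 4.18-fold lower with DMBA. Bnip3, a mitochondrial gene of mitophagy, lay at 1.87, 1.22 and 1.25 with vehicle and at 0.54, 0.62 and 0.82 with DMBA, a difference of -0.78 (SE 0.27; limma adjusted p = 0.893) and of -1.22 on its other probe. Eno1, a glycolytic enzyme, had a difference of -0.24 (SE 0.20). In the other direction Ero1a, an oxidase of the endoplasmic reticulum, had a difference of 0.60 (SE 0.28) without overlap, and Pfkfb3, a regulator of glycolysis, 0.74 (SE 0.52; -0.06 on its other probe). None of these passed, and the summed level of the targets ranged from 162 to 179 times the 75th percentile with vehicle and from 162 to 175 with DMBA. Most of that sum on each array came from Aldoa, Pgk1, Ldha, Ddit4 and Eno1, so it is not a level of the targets as a set.

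Of the 13 tested PPAR genes and PPAR targets, to which Angptl4 also belongs, 5 were higher and 8 lower (median -0.13, and 0.07 without vehicle 1), with groups that overlapped in each of them. Cpt1a, of mitochondrial fatty acid import, had a difference of -0.55 (SE 0.32), Lpl, the lipase that Angptl4 inhibits, -0.93 (SE 0.69), Ppard 0.47 (SE 0.43) and Rxra 0.59 (SE 0.54; -1.34 on its other probe). The angiogenesis inhibitors had 6 of 9 tested genes higher (median 0.17) and also overlapped throughout. That median was -0.19 without vehicle 3, 0.03 without DMBA 1, and 0.06 after quantile normalization. Timp3, a protease inhibitor of the matrix, had a difference of 0.36 (SE 0.25), Serpinf1 0.28 (SE 0.33; -0.54 on its other probe), Sema3f, a semaphorin, -0.61 (SE 0.53) and Vash2 -0.77 (SE 1.03). Vash2 exceeded background on 2 vehicle arrays and 1 DMBA array, and with dim spots at the lowest value above background its difference was 0.18, so its direction is not settled. Of 10 other angiogenic growth factor genes tested, 7 were higher (median 0.31). Ccn1, a matrix protein that promotes angiogenesis, lay at -2.05, 0.05 and -1.05 with vehicle and at 0.31, 0.45 and 0.88 with DMBA, a difference of 1.56 (SE 0.54; limma adjusted p = 0.894). Ccn2, its relative, had a difference of 0.66 (SE 0.27), also without overlap. Pdgfb and Pdgfa, chains of platelet-derived growth factor, had differences of -0.45 (SE 0.26; 0.55 on the other Pdgfb probe) and -0.22 (SE 0.20), and in neither did the groups overlap.

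**Figure D4:**
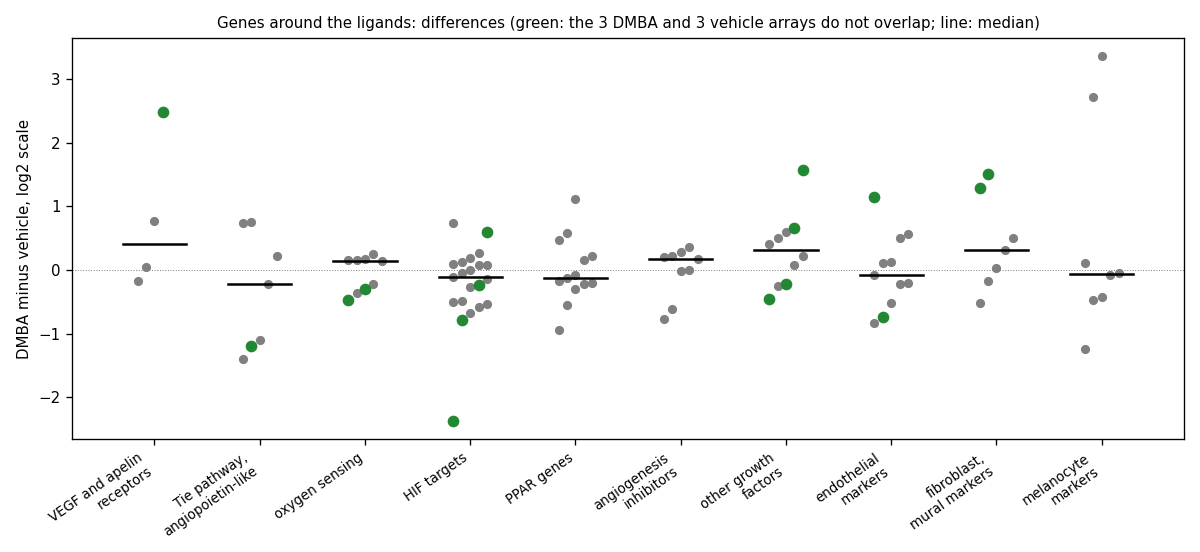
DMBA minus vehicle on the log2 scale for each tested gene of 10 lists, with green points where the groups did not overlap and lines at the medians. The list medians lie from -0.22 to 0.41, and the lowest point is P4ha1 at -2.37.

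Endothelial cells are known to make Apln and many of these receptors, and markers of other cell types were read beside the members. Of 15 endothelial markers, 9 to 11 were well above background on the DMBA arrays and 11 or 12 on the vehicle arrays. Their summed level ranged from 2.18 to 2.93 times the 75th percentile with vehicle and from 1.93 to 2.99 with DMBA, and the median difference was -0.07 over 11 tested genes. Egfl7 and Eng together made up most of that sum on each array, so it is not a level of the endothelial markers as a set. Pecam1 had a difference of -0.51 (SE 0.34), Cdh5 was well above background on at most 1 array, and Sox17 and Erg on none. The largest values in the list were Eng at 1.14 (SE 0.57), Mmrn2 at -0.83 (SE 0.50) and Egfl7 at -0.73 (SE 0.31), and none passed. Fibroblast and mural markers had a median of 0.32 over 7 of 11 genes, a summed level from 3.20 to 5.12 with vehicle and from 5.01 to 5.62 with DMBA, and Pdgfra, Pdgfrb and Rgs5 above background on no array. That median was -0.05 without vehicle 3, 0.12 without vehicle 1 and 0.64 without vehicle 2. Dcn, the proteoglycan decorin, had a difference of 1.51 (SE 0.25; limma adjusted p = 0.445), Col1a1 1.29 (SE 0.57) and Col3a1 -0.52 (SE 0.34). The other marker lists had medians of 0.02 for leukocytes (Nkg7 at 0.48, Lyz2 at -0.30 and Cd68 at -0.27), 0.57 for erythroid cells and platelets (Alas2 at 1.74, Hba-a1 at 0.72 and Hba-a2 at 0.41, whose near-identical copies can share signal) and -0.10 for the sorted keratinocytes (Lgr5 at -0.64, Sox9 at -0.50, Cdh3 at -0.30, Krt15 at 0.19 and Itga6 at -0.19). The summed levels ranged with vehicle and DMBA from 95.0 to 113.6 and from 90.5 to 144.8 for leukocytes, from 0.616 to 4.72 and from 1.03 to 5.60 for erythroid cells and platelets, and from 344.2 to 399.4 and from 355.3 to 525.5 for the keratinocytes, all 10 of whose markers were well above background on each array. Col1a2 and Cspg4 together made up most of the fibroblast and mural sum on each array, and Krt14, Krt5 and Krt15 most of the keratinocyte sum. Hba-a1 made up most of the erythroid and platelet sum on vehicle 1, DMBA 1 and DMBA 3. These sums are therefore not levels of their marker sets. Most of the leukocyte sum on each array came from Itgam alone, so that sum is not a level of the leukocyte markers as a set. Itgam lay at 6.48, 6.53 and 6.75 with vehicle and at 7.11, 6.41 and 6.46 with DMBA, a difference of 0.07 (SE 0.27). Its other kept probes had differences of 0.66 (SE 0.50) and 0.31 (SE 0.26). The other Nkg7 probe had a difference of 0.01 (SE 0.55), against 0.48 on the brightest. The median of the erythroid and platelet list was -0.03 without vehicle 3, and the medians of the endothelial, leukocyte and melanocyte lists changed sign in 7, 6 and 5 of 16 alternatives. Groups did not overlap for Eng (higher) and Egfl7 (lower) among 11 tested endothelial markers. The same held for Dcn and Col1a1 (higher) among 7 fibroblast and mural markers, and for Nkg7 (higher) among 11 leukocyte markers. Lgr5 and Sox9 (lower) were such genes among 10 keratinocyte markers. In the tested erythroid, platelet and melanocyte markers the groups overlapped. Over all genes tested, 4.87% were higher and 5.17% lower without overlap. Pf4 and Ppbp, the platelet chemokines, were above background on no array. The part of these cells in the values of Apln and Pgf was not tested.

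Of 8 melanocyte markers, 2 had array-to-array values much like those of Apln. The 5 genes most like Apln over the 6 arrays, by Pearson's r and out of 29 genes with r above 0.95, were Tcf7, a transcription factor of Wnt signalling (r = 0.990), Gm3448 (0.987), Gde1, a phosphodiesterase (0.984), Mlana, a melanosome gene (0.980), and Il12rb2, a subunit of the interleukin 12 receptor (0.978). Each was higher on vehicle 2 than on vehicle 1 and 3, as Apln was, and the 6 arrays fall into 2 groups, so the values are given with no test. Mlana lay at -2.62, 0.87 and -2.22 with vehicle and at 0.78, 2.05 and 1.37 with DMBA. Tyrp1, another melanosome gene, lay at -8.22, -3.62 and -7.19 with vehicle and at -2.24, -2.01 and -4.72 with DMBA (r = 0.914 with Apln), and was well above background on vehicle 2 alone among the vehicle arrays. The other 6 markers had r from -0.70 for Kit, the receptor of the melanocyte growth factor KITL, to 0.31 for Tyr. All 8 markers were tested, 3 of them higher and 5 lower, with a median difference of -0.06. Their summed level ranged from 2.95 to 4.46 with vehicle and from 4.14 to 6.75 with DMBA. Mlana made up most of that sum on DMBA 2 and DMBA 3 and little of it on vehicle 1 and vehicle 3. The sum is therefore not a level of the 8 markers as a set. The differences were 2.72 (SE 0.95) for Mlana, 3.35 (SE 1.32) for Tyrp1 and -1.24 (SE 0.73) for Kit. With the dim vehicle spots of Tyrp1 at the lowest value above background, its difference was 2.27. Their part in the Apln value was not tested.

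**Figure D5:**
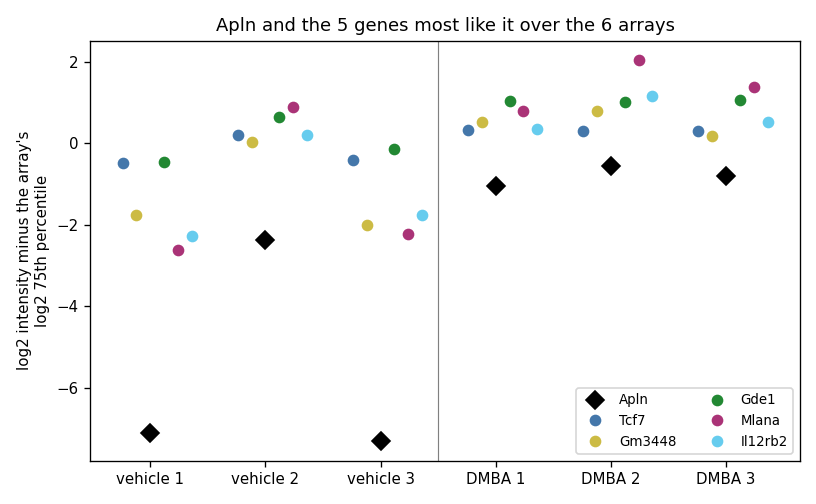
Log2 intensity relative to the 75th percentile of Apln (black) and of the 5 genes with the highest Pearson's r with it, on each of the 6 arrays. In each gene vehicle 2 lies above vehicle 1 and vehicle 3, and for Apln it lies at -2.38 against -7.09 and -7.31.

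The genes most like Pgf were Ttc39b (r = 0.995), Nrn1, which encodes neuritin (0.995), the glutathione peroxidase Gpx2 (0.982), Ift27, of intraflagellar transport (0.981), and the kinesin Kif24 (0.980). Their differences ran from 0.78 to 1.08, and their order of arrays within the DMBA group had DMBA 3 lowest, as for Pgf. The genes most like the brighter Vegfa probe were Iqcb1, a gene of the cilium (r = 0.996), Mtx3 (0.985), Cwc27, of the spliceosome (0.983), the recombination gene Xrcc3 (0.983) and Tagap1 (0.982). They had differences from -1.56 to -0.44, and in each of them DMBA 1 was the lowest array. Mtx3 exceeded background on 3 vehicle arrays and 1 DMBA array. With 6 arrays and 17836 genes, r was above 0.95 for 29 genes with Pgf and for 32 with Vegfa; such a likeness is a description.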

How the data were processed

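RNA of 3 vehicle and 3 DMBA samples was hybridised to 1-colour (Cy3) Agilent arrays. Per the file headers and the submitters' processing notes, the authors read the spots with Agilent Feature Extraction 10.7.1.1. The deposited scanner files hold intensity, already background-corrected by that software, with probe annotation on mouse build mm9. The deposited series matrix holds intensity divided by each array's 75th percentile (r from 0.99992 to 0.99997 with the scanner values on the log2 scale; column medians 0.162, 0.154 and 0.154 for vehicle and 0.172, 0.159 and 0.16 for DMBA), and served as an alternative.

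From these, log2 values relative to each array's 75th percentile over spots that are not controls were computed in R 4.3.3. Spots with outlier flags were left out (45 missing probe values, none in the members), spots of a probe were averaged, and probes well above background on at least 3 of 6 arrays were kept (44936 of 55681). Probes were named by RefSeq accession through GRCm38.p6 (28331 of all probes named). Of a gene's kept probes the brightest stands for it, so levels are not compared between genes. DMBA was compared with vehicle with limma 3.58.1 (two-sided, Benjamini-Hochberg over all genes tested), a fit tested on simulated data. The number of arrays limits the precision.

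The members and gene lists were chosen with earlier results of these data known. From each list, genes without overlap of the groups were named, up to 4 per direction by smallest p, filled to 2 per direction by smallest p, and from marker lists the 3 largest differences with the defining markers. A gene that this rule names is not reported here. Alternatives covered background correction (on median signals, since the files hold no mean signal), scaling, filter, probe choice, replicate block, slide, detection, each array left out and, added after seeing the data, a floor for dim spots.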

Additional observations from a re-analysis of the deposited data

How the results depend on the processing

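The count of genes called with limma was 0 in each setting but one: without vehicle 2 it was 1, and that gene was Apln, a member chosen with this contrast known (range 0 to 1 over the arrays left out). Vehicle 2 was the only vehicle array on which Apln was well above background. That setting thus sets DMBA against 2 dim spots, and nothing is read from the call. At unadjusted p, 1258 genes were higher without the filter on dim probes and 763 with the percent of spots above background as a covariate. Leaving out each array gave 466 to 534 genes higher and 396 to 725 lower, most of the latter without DMBA 1. Genes whose groups did not overlap numbered 1802 higher without the filter, and 1488 to 1757 higher and 1578 to 2846 lower with an array left out, since 3 against 2 arrays separate more easily. Without DMBA 3, Aplnr and Vegfa also had groups that did not overlap. Of the member differences under alternatives, 133 moved by less than 1 SD of the replicates, and the 3 that moved more were Aplnr (0.34), Vegfc (0.36) and Angpt2 (-1.01), each with the covariate. Some of the 133 could not move. For a gene with 1 probe, the replicate block, the mean over probes and no filter return the main value. The slide block and leaving out vehicle 1 are the same comparison and are counted separately, also in the counts of alternatives above. The pooled SD of Apln was 1.98, so its change from 4.80 to 2.88 after normexp counted as less than 1 SD. The Apln value could not be computed with the strictest filter. Of the list medians, 19 moved by more than the spread between arrays and 189 did not. With the replicate block, 0 genes were called and 509 were higher and 469 lower at unadjusted p. Same-numbered samples did not deviate together (r from -0.02 to 0.06), so the numbers show no pairing. Signal over background limits Apln, Angpt1, Nrp1, P4ha1, Tyrp1 and Vash2.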

Other observations

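Some genes of oxygen sensing read differently on their other probes, and they were singled out after their values were seen. Epas1, which encodes HIF-2 alpha, the factor prominent in vessel cells, had a difference of -0.22 (SE 0.46) on its brightest probe, and of 0.96 (SE 0.32) and 0.63 (SE 0.22) on 2 others. Egln3, a prolyl hydroxylase that is itself a HIF target, had 0.14 (SE 0.55) on its brightest probe and -1.45 (SE 0.72) on the other. The list counts in the report use the brightest probe.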
